A study of Homo sapiens with 4 samples.

Results

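Cholesterol and fatty acid synthesis is carried out by a set of enzymes whose genes share the same transcriptional control, and these genes were examined on 4 expression arrays of DU145 cells with and without an shRNA against DCUN1D1. Members were taken as every probe set, a group of short array probes for 1 transcript, whose annotation names exactly 1 gene out of a list of 31 genes of this pathway. Probe sets were found for 30 of the 31 genes, 65 probe sets in all, among the 19774 genes and 40914 single-gene probe sets of the array. FDFT1 is the listed gene without one. For comparisons between genes, each gene was represented by its brightest probe set, the one with the highest mean over the 4 arrays.

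DU145 is an established line of androgen-independent prostate carcinoma cells. The control cells (DU145 shGFP, 2 arrays) carried a lentiviral shRNA against GFP and the knockdown cells (DU145 shDCUN1D1, 2 arrays) a lentiviral shRNA against DCUN1D1, the neddylation factor that helps attach NEDD8 to cullins, and both groups were infected. The records give 16 h in DMEM before RNA was taken, call the arrays of a group biological duplicates and mention DMSO without saying which cells received it. The study's methods instead describe RNA taken a few days after infection, and more than 1 shRNA against DCUN1D1, so the timing is not settled and the knockdown arrays may carry different shRNAs. Single-channel arrays were hybridised with biotin-labelled cRNA made from 1 µg of total RNA, and the comparison asks which transcripts differ once DCUN1D1 is depleted. With 2 arrays a group, the lowest p open to a two-sided exact permutation test is 0.333, and precision is limited by this number of arrays.

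Sterol and fatty acid enzymes are switched on by the membrane-bound transcription factors SREBP-1 and SREBP-2, the products of SREBF1 and SREBF2. When sterols are low, SCAP escorts the SREBPs from the endoplasmic reticulum to the Golgi, where proteases release the active part, and when sterols are high INSIG1 and INSIG2 hold SCAP back. SREBP-2 acts mainly on cholesterol genes and SREBP-1 mainly on fatty acid genes, and both pathways are known to be active in prostate cancer cells. The nuclear SREBPs are cleared through FBXW7, the receptor of a cullin-RING ligase, the class of enzyme that DCUN1D1 acts on.

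As the genes are known for their shared control, their promoters were read first. Windows from 250 bases before to 50 bases after the gene start (RefSeq, GRCh38.p14) were found for 27 of the 31 listed genes and searched on both strands for 3 motifs, counting matches of 1 motif that overlap on opposite strands separately. The sterol regulatory element, searched as TCACNCCAC, was found in 1 of the 27 windows (3.70%), that of SREBF2, against 1.15% of the windows of all 27305 gene symbols. The CCAAT box, searched as CCAAT, was found in 17 of 27 (63.0%) against 35.7% of all windows, and the GC box, searched as GGGCGG, in 25 of 27 (92.6%) against 44.6%. The windows of the members held a median of 67.7% G or C bases, against 58.3% over all windows. MVK and NSDHL each had 5 CCAAT matches, and MSMO1 had 4. Only exact matches to these patterns were counted, so near matches were left out. The matches are letters in a window and were not measured as binding sites.

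The 250 bases before the start are shown 5′ to 3′ for SREBF1, MVK and FADS1, the members with a probe set past the fold bound described below. SREBF2 is shown as the member window with an exact match to TCACNCCAC. Capitals mark matches to any of the 3 motifs on either strand. The stretches are chr17:17836987-17837236 on the - strand for SREBF1, chr22:41832855-41833104 on the + strand for SREBF2, chr12:109573544-109573793 on the + strand for MVK and chr11:61817004-61817253 on the - strand for FADS1.
SREBF1: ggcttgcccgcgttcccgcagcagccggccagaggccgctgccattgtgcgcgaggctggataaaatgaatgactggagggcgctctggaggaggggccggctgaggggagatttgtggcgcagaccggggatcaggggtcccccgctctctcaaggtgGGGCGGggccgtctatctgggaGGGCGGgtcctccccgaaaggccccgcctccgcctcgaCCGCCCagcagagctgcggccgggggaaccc
SREBF2: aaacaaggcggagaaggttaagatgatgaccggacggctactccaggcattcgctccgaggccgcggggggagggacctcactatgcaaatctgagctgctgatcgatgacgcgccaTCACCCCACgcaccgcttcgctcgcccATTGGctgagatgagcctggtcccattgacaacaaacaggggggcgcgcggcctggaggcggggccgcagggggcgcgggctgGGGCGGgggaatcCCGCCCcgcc
MVK: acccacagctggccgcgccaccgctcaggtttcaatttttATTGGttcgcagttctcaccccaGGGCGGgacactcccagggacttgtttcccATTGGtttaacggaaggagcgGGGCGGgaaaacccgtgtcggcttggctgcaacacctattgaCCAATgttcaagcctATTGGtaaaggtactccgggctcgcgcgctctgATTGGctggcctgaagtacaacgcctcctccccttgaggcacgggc
FADS1: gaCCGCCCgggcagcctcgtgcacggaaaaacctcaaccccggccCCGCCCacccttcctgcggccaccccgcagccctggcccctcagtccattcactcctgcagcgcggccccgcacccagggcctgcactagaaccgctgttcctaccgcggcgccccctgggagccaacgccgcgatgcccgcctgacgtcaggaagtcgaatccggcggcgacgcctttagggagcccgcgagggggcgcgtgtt
In the SREBF2 stretch the sterol regulatory element starts at position −133 from the gene start and is followed by a CCAAT box in reverse orientation at −106. The SREBF1 and FADS1 stretches hold GC boxes but no match to the other motifs.

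Values are log2 signal as deposited, and differences are log2 fold change, knockdown minus control. The test was limma, which borrows information on the spread across the table, and p-values were adjusted over the whole table by Benjamini–Hochberg. SE stands for the standard error of the log2 fold change. A gene was called past the fold bound when its fold change, taken at the lower end of the 90% confidence interval, exceeded 1.2, the level and cut-off of the study's methods. By this rule 1.57% of all genes were higher and 3.64% lower, and 0% had an adjusted p under 0.05. The targeted gene itself had little signal: DCUN1D1 read 2.55 and 1.99 under shGFP and 1.60 and 1.45 under shDCUN1D1 (replicates 1 and 2, the order used throughout), a log2 fold change of −0.75 (SE 0.26, limma adjusted p = 0.59) that did not pass the bound. Its other 5 probe sets had −0.47, −0.19, −0.11, 0.07 and 0.12, and the mean over all 6 had −0.22.

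Most of the array lay near background. Probe sets matching no human transcript serve as nonspecific controls, ordered by the number of G or C bases in their probes. The one with 20 such bases, called the 20-base background control here, read 2.97 and 3.30 under shGFP and 2.48 and 2.51 under shDCUN1D1. Of 23 such controls, 20 had both knockdown arrays below both control arrays, with a median difference of −0.29. DCUN1D1, on its brightest probe set, read lower than the 20-base background control in all 4 arrays. Its mean under shGFP was 2.27, and the control with 17 such bases also had 2.27. That control had a difference of −0.41, beside −0.75 for DCUN1D1. The part of this background shift in the DCUN1D1 value was not tested. Knockdown replicate 1 stood apart, correlating over genes at 0.665 to 0.760 with the other arrays, which correlated at 0.825 to 0.92 among themselves. The 3′ probe sets of 2 housekeeping genes were high in it: GAPDH read 10.82 against 4.68 to 5.09 in the other arrays, and actin 8.30 against 3.95 to 4.35. The spiked-in bacterial control BioB (middle probe set) read 8.22 and 10.49 under shGFP and 6.37 and 6.22 under shDCUN1D1. The part of these in the results was not tested. In knockdown replicate 1, 8.17% of all genes lay over 1 log2 unit above the other 3 arrays. Of 6 epithelial markers KRT8 alone lay above the nonspecific control in all 4 arrays, at 3.25 to 3.73. KRT18 read 7.62 in knockdown replicate 1 but only 1.63 to 1.69 elsewhere. Of the adipocyte markers ADIPOQ, PLIN1, LEP, FABP4 and CIDEC, 0 of 5 lay above it in all 4 arrays, and likewise 0 of 4 endothelial, 0 of 4 leukocyte and 0 of 3 luminal prostate markers. Of 5 fibroblast markers COL1A1 lay above it in all 4 arrays, at 3.38 to 4.75, and PDGFRB was lower past the bound (−1.01).

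On the brightest probe sets, 0 of the 30 were higher and 1 was lower past the fold bound (0% and 3.33%), against 1.57% and 3.64% of all genes. The 1 lower gene was SREBF1. None had an adjusted p under 0.05 from limma, the smallest being 0.59. Unadjusted, limma's p was under 0.05 for ACACA among higher members (1 of 30, against 2.34% of all genes) and for SREBF1 among lower ones (1 of 30, against 6.05%). With the unmoderated standard error the counts were 0 higher and 2 lower, and 0 after adjustment. The median log2 fold change of the 30 genes was −0.03, against −0.01 over all genes, with a range from −1.05 to 0.92. Under quantile normalization the median was −0.19, against −0.04 over all genes. For 16 of the 30 the absolute difference was under 0.25. Both knockdown arrays lay above both controls for 5 members (16.7%, against 18.4% of all genes) and below them for 8 (26.7%, against 26.3%). The 5 were HMGCS1, IDI1, CYP51A1, ACLY and ACACA, and the 8 were SREBF1, SREBF2, MVD, TM7SF2, HSD17B7, EBP, FASN and FADS2. These shares lie near those of all genes, and 17 members overlapped between the groups.

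**Figure D1:**
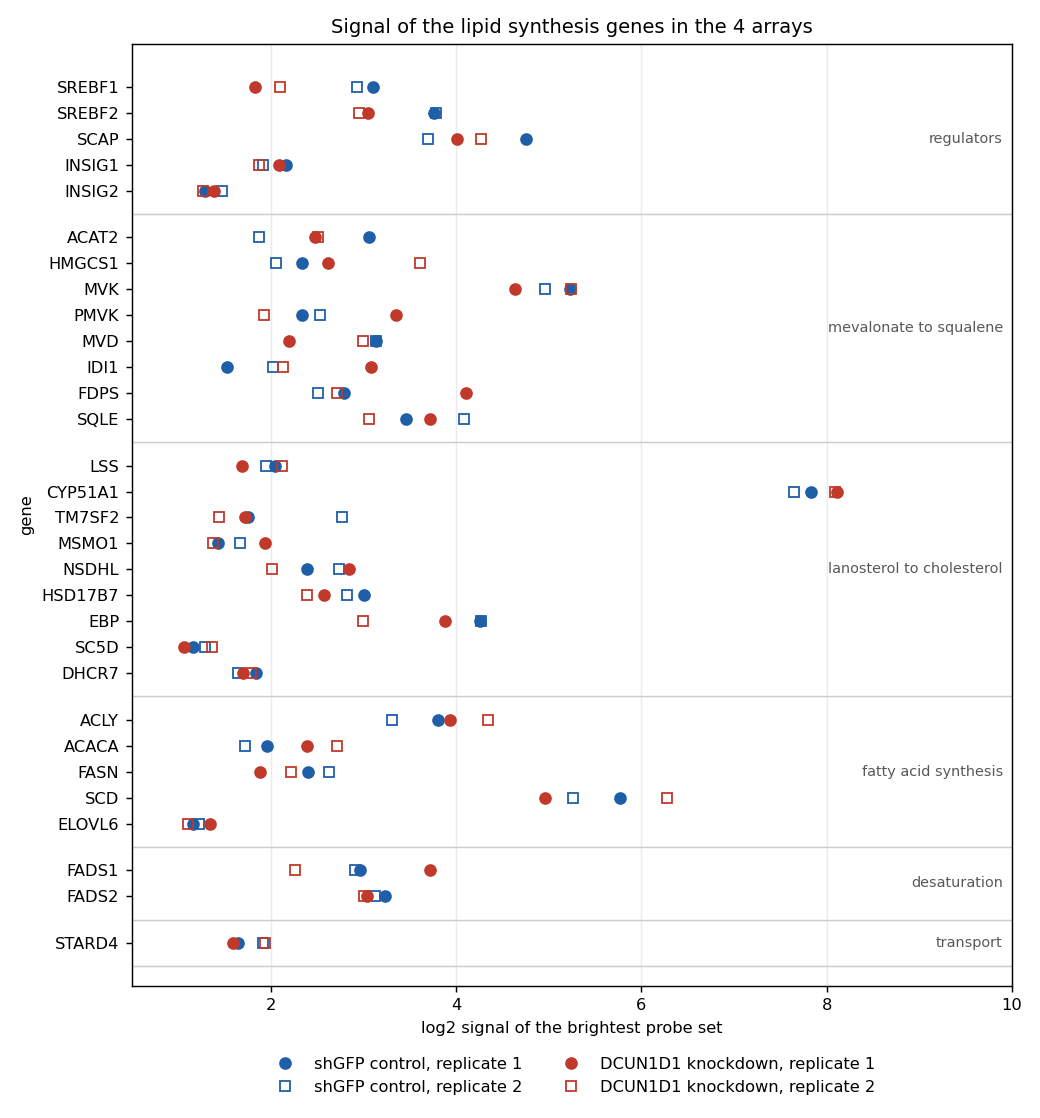
Log2 signal of the brightest probe set (horizontal axis) of each of the 30 genes (rows, grouped by role) in each array. Blue marks shGFP and red shDCUN1D1, with filled circles for replicate 1 and open squares for replicate 2. SREBF1 reads 3.10 and 2.93 under shGFP and 1.83 and 2.09 under shDCUN1D1, and in most other rows the colours are mixed.

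Signal was above the 20-base background control in all 4 arrays for 8 of the 30 genes (26.7%, against 7.64% of all genes) and in no array for 10. The 8 were SREBF2, SCAP, MVK, SQLE, CYP51A1, EBP, ACLY and SCD. The 10 were INSIG1, INSIG2, LSS, TM7SF2, MSMO1, SC5D, DHCR7, FASN, ELOVL6 and STARD4, for which a difference could not be read apart from background.

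Among the regulators, both SREBF genes had less signal after knockdown on their brightest probe set. SREBF1 read 3.10 and 2.93 under shGFP and 1.83 and 2.09 under shDCUN1D1. The groups did not overlap. Its mean was 3.02 ± 0.12 (SD, n = 2) under shGFP and 1.96 ± 0.19 (SD, n = 2) under shDCUN1D1, a log2 fold change of −1.05 (SE 0.27, limma adjusted p = 0.59). The lower 90% bound was 1.42. Both knockdown values lay below the 20-base background control, so the size of the difference is set against background. In bulk RNA, fewer cells with the transcript and less of it per cell cannot be told apart. The SREBF1 log2 fold change was −0.97 without control replicate 1 and −0.92 without knockdown replicate 1, and in both cases it was no longer past the bound. The other SREBF1 probe set read 2.08 and 1.46 under shGFP and 2.04 and 1.98 under shDCUN1D1, and there the groups overlapped. Its log2 fold change was 0.24, and the mean over both probe sets had −0.41 and did not pass the bound.

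SREBF2 read 3.76 and 3.78 under shGFP and 3.05 and 2.95 under shDCUN1D1 on its brightest probe set. The replicates lay close together and the groups apart. The log2 fold change was −0.77 (SE 0.35, limma adjusted p = 0.59), and its lower 90% bound was 1.04, under the cut-off of 1.2. It was lower past the bound with the unmoderated error (1.55) and without the variance trend (1.36). A further SREBF2 probe set was lower in both knockdown arrays, with means of 2.05 and 1.70 and a log2 fold change of −0.35. It lay below the 20-base background control in every array. The nonspecific control nearest to it, of 16 G or C bases, had a difference of −0.38, and its part was not tested. The last SREBF2 probe set read 2.50 and 1.68 under shGFP and 2.18 and 2.67 under shDCUN1D1 and so overlapped. Its log2 fold change was 0.33, and the mean over the 3 probe sets had −0.26.

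Nonspecific controls of similar brightness were lower in the same arrays. The one of 19 G or C bases, nearest to SREBF1 in the control arrays, read 2.90 and 3.16 under shGFP and 2.33 and 2.48 under shDCUN1D1, a difference of −0.63 beside −1.05 for SREBF1. The one of 21 such bases, nearest to SREBF2, read 3.49 and 3.62 under shGFP and 2.84 and 2.96 under shDCUN1D1, a difference of −0.65 beside −0.77 for SREBF2. SREBF1 was above the 20-base background control in 1 array, and SREBF2 in all 4. The part of this background shift in the SREBF values was not tested.

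**Figure D2:**
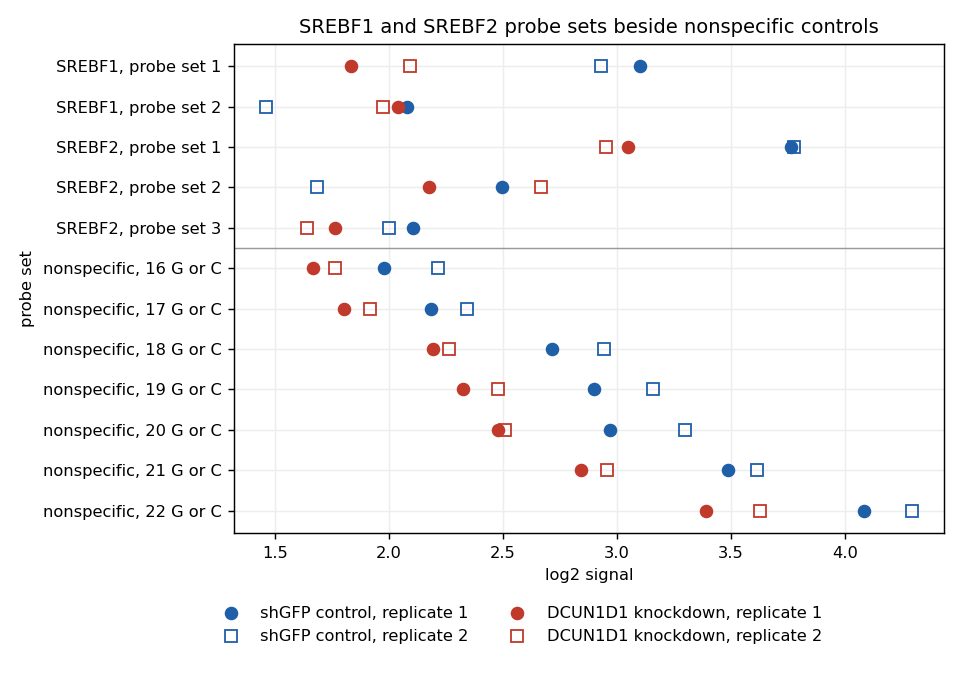
Log2 signal (horizontal axis) of each SREBF1 and SREBF2 probe set, numbered from the brightest down, above nonspecific controls of 16 to 22 G or C bases (rows). Blue marks shGFP and red shDCUN1D1, with filled circles for replicate 1 and open squares for replicate 2. In every nonspecific row shown the knockdown arrays lie left of the controls, by 0.63 at 19 bases, and SREBF2 probe set 1 at 2.95 to 3.05 after knockdown lies near the control of 21 bases at 2.84 and 2.96.

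SCAP and the INSIG genes, the sterol-sensing partners of the SREBPs, overlapped between the groups on their brightest probe sets. SCAP read 4.76 and 3.70 under shGFP and 4.01 and 4.27 under shDCUN1D1, so that the knockdown arrays lay between the controls. Its log2 fold change was −0.09 (SE 0.55, limma adjusted p = 0.96). INSIG1, itself an SREBP target, read 2.17 and 1.92 under shGFP and 2.09 and 1.88 under shDCUN1D1 on its brightest probe set, with a log2 fold change of −0.06. On its other probe sets both knockdown arrays lay above both controls, below the 20-base background control throughout and not past the bound. They had 0.28 and 0.51, the latter from 2.05 in knockdown replicate 1 against 1.11 to 1.26 in the other arrays. INSIG2 had 1 probe set, at 1.27 to 1.48, and a log2 fold change of −0.05. The signs of the SCAP, INSIG1 and INSIG2 values changed with the array left out.

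The enzymes grouped as acetoacetyl-CoA to squalene, which here include SQLE, the enzyme that acts on squalene, differed from one another. Of the 8 measured, 0 passed the fold bound on the brightest probe set, 5 had positive and 3 negative log2 fold changes, and their median was 0.12. HMGCS1, which makes HMG-CoA, had 0.92, the highest of the 30 genes. It read 2.34 and 2.06 under shGFP and 2.62 and 3.61 under shDCUN1D1. The groups did not overlap, but the difference came mostly from knockdown replicate 2, and the other HMGCS1 probe set had 0.02. Both control values of the brightest HMGCS1 probe set lay below the 20-base background control. FDPS, which makes farnesyl diphosphate, had 0.76 and IDI1, the isopentenyl diphosphate isomerase, 0.83, both mostly from knockdown replicate 1. FDPS read 4.10 there, against 2.51 to 2.79 in the other arrays. IDI1 read 3.08 there, against 1.53 to 2.13. The thiolase ACAT2 had 0.03 and the kinase PMVK 0.21, while the decarboxylase MVD had −0.55. The nonspecific control nearest to MVD, of 20 G or C bases, had −0.64, and its part in the MVD value was not tested.

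MVK, mevalonate kinase, was the member whose probe sets differed most in call. Its brightest probe set read 5.23 and 4.96 under shGFP and 4.64 and 5.24 under shDCUN1D1, with a log2 fold change of −0.16 (SE 0.52, limma adjusted p = 0.92). When every probe set was tested, both others were lower past the fold bound. One read 2.71 and 3.89 under shGFP and 1.86 and 1.59 under shDCUN1D1, a log2 fold change of −1.58 (SE 0.46, limma adjusted p = 0.62). The other read 2.56 and 2.86 under shGFP and 1.76 and 1.95 under shDCUN1D1, a log2 fold change of −0.86 (SE 0.26). Both sets of values cross the range of the nonspecific controls of 17 to 20 G or C bases, whose differences were −0.64 to −0.41, and their part in these values was not tested. Without control replicate 2 the log2 fold changes were −0.99 and −0.70.

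SQLE, squalene epoxidase, read 3.46 and 4.08 under shGFP and 3.71 and 3.06 under shDCUN1D1 on its brightest probe set, with a log2 fold change of −0.38 (SE 0.47). The groups overlapped. Another SQLE probe set read 1.78 and 1.99 under shGFP and 3.23 and 1.95 under shDCUN1D1, a log2 fold change of 0.71 that came from knockdown replicate 1 alone.

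The 9 enzymes grouped as lanosterol to cholesterol here include LSS, the cyclase that makes lanosterol. Of these 9, 0 passed the fold bound, 2 had positive and 7 negative log2 fold changes, and the median was −0.09. CYP51A1, the lanosterol demethylase, read 7.83 and 7.65 under shGFP and 8.11 and 8.09 under shDCUN1D1. The groups did not overlap and the log2 fold change was 0.37 (SE 0.40, limma adjusted p = 0.72), but under quantile normalization it was −0.33. The other CYP51A1 probe set read 3.01 in knockdown replicate 1 but only 1.12 to 1.35 elsewhere. EBP, the sterol isomerase, read 4.26 and 4.27 under shGFP and 3.88 and 2.99 under shDCUN1D1 on its brightest probe set, a log2 fold change of −0.83 (SE 0.49, limma adjusted p = 0.59). The nonspecific control nearest to it, of 22 G or C bases, had a difference of −0.68, and its part in the EBP value was not tested. The other EBP probe sets had 0.43 and 1.35, so that the mean over the 3 was 0.31. The one with 1.35 read 4.29 in knockdown replicate 1 and at most 1.90 in the other arrays.

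The remaining enzymes of this branch lay close to background. The reductase TM7SF2 had −0.68, from 1.76 and 2.77 under shGFP and 1.72 and 1.44 under shDCUN1D1. The reductase HSD17B7 had −0.44 and the dehydrogenase NSDHL −0.13. The nonspecific control nearest to both, of 18 G or C bases, had −0.60, and its part in these values was not tested. The methylsterol oxidase MSMO1 had 0.10, the cyclase LSS −0.09, the desaturase SC5D −0.01 and DHCR7, the last reductase of the pathway, 0.00.

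Of the 5 genes of fatty acid synthesis, 0 passed the fold bound, and 4 had positive log2 fold changes. ACACA, acetyl-CoA carboxylase and the committed step of the pathway, read 1.96 and 1.72 under shGFP and 2.39 and 2.71 under shDCUN1D1. The groups did not overlap, and the log2 fold change was 0.71 (SE 0.25, limma adjusted p = 0.59) with a lower 90% bound of 1.15. ACACA lay above the 20-base background control in knockdown replicate 2 alone, so its size is set against background. The other ACACA probe set had −0.01. ACLY, which supplies cytosolic acetyl-CoA, read 3.81 and 3.31 under shGFP and 3.93 and 4.35 under shDCUN1D1, a log2 fold change of 0.58 (SE 0.45, limma adjusted p = 0.62). The other ACLY probe sets had 1.19, from 4.68 in knockdown replicate 1 against 2.27 to 2.40 in the other arrays, and −0.08. FASN, the fatty acid synthase, had −0.46, from 2.40 and 2.63 under shGFP and 1.88 and 2.21 under shDCUN1D1, and its other probe set had 0.21. The nonspecific control nearest to its brightest probe set, of 17 G or C bases, had −0.41, and its part was not tested.

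SCD, which introduces the double bond of oleate, had the widest spread between replicates among its role. Its brightest probe set read 5.77 and 5.26 under shGFP and 4.96 and 6.28 under shDCUN1D1, so that both controls lay between the knockdown arrays. The log2 fold change was 0.11 (SE 0.67, limma adjusted p = 0.96), and −0.69 under quantile normalization. Its other 4 probe sets were dimmer, with means over the arrays of 1.62 to 2.42, and had 0.09 to 0.55. Each lay above the 20-base background control in at most 1 array. The 0.55 came from 3.51 in knockdown replicate 1 against 1.88 to 2.30 in the other arrays. The elongase ELOVL6 lay at 1.05 to 1.35 on both its probe sets.

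In the desaturases of polyunsaturated fatty acids, FADS1 had the largest difference of all 65 probe sets, on a probe set that was not its brightest. It read 1.94 and 1.42 under shGFP and 4.22 and 2.84 under shDCUN1D1. Both knockdown arrays lay above both controls, and the log2 fold change was 1.85 (SE 0.54, limma adjusted p = 0.62), higher past the fold bound. Both control values lay below the 20-base background control, so its size and rank are set against background. Without knockdown replicate 1 it was 1.16. The brightest FADS1 probe set read 2.96 and 2.91 under shGFP and 3.72 and 2.26 under shDCUN1D1, so that the controls lay between the knockdown arrays, with a log2 fold change of 0.05 (SE 0.56), or −0.28 under quantile normalization. The third had 0.55. FADS2 read 3.23 and 3.12 under shGFP and 3.03 and 3.01 under shDCUN1D1, a log2 fold change of −0.15 that is smaller than its standard error of 0.32. STARD4, a carrier of sterol between membranes, had −0.01.

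Over every probe set, 1 of 65 was higher (1.54%, against 1.18% of all 40914) and 3 were lower past the fold bound (4.62%, against 2.38%). The 1 was the FADS1 probe set above, and the 3 belong to SREBF1 and MVK. Both knockdown arrays lay above both controls for 9 of 65 (13.8%, against 17.9%) and below them for 13 (20%, against 25%). Probe sets of 1 gene share its RNA and are not replicates. The total of 4 fell without control replicate 2 and rose without knockdown replicate 2. The share of all genes past the bound fell and rose likewise in these fits. Of the 21 members with several probe sets, 11 had differences of both signs.

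**Figure D3:**
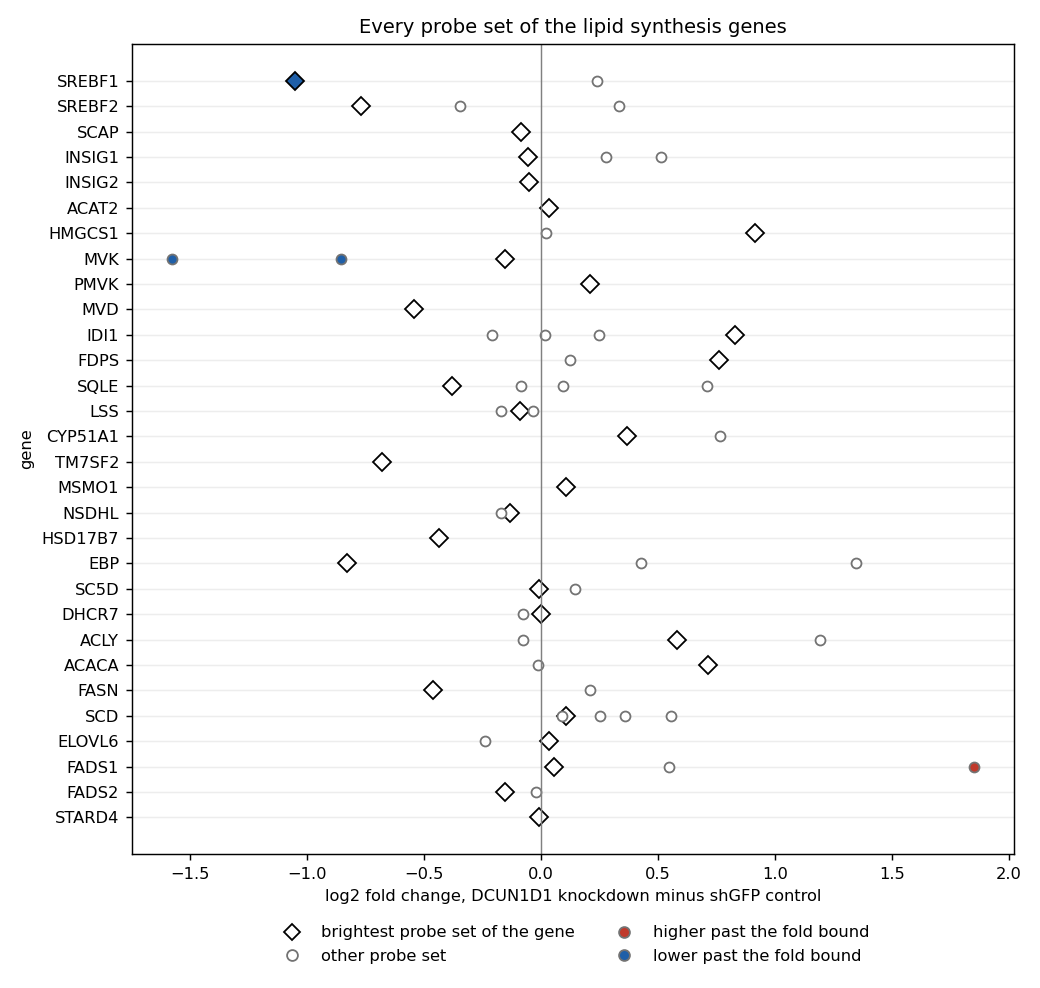
Log2 fold change, DCUN1D1 knockdown minus shGFP control (horizontal axis), of all 65 probe sets by gene (rows). Diamonds are the brightest probe set of a gene and circles its others, and filled symbols are past the fold bound, red higher (FADS1, 1.85) and blue lower (SREBF1, −1.05, and MVK, −1.58 and −0.86).

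In 7 of the 65 probe sets (10.8%, against 6.57% of all probe sets) knockdown replicate 1 lay over 1 log2 unit above each of the other 3 arrays. They belong to FDPS, SQLE, CYP51A1, EBP, ACLY, SCD and FADS1, 1 probe set each. On the brightest probe sets the count was 1 of 30, FDPS (3.33%, against 8.17% of all genes), and HMGCS1, ACACA and ACLY were further above the control mean in knockdown replicate 2. Of the 30, 7 lay above the control mean in both knockdown replicates, 9 below it in both, and 14 above it in one and below it in the other. The same split was not counted over all genes, so it is not read as particular to the members. Leaving out knockdown replicate 1 gave 2 members higher past the bound, HMGCS1 (1.41) and ACACA (0.87), and 0 lower, where 3.59% of all genes were higher and 3.11% lower. Leaving out knockdown replicate 2 gave 2 higher, FDPS (1.45) and IDI1 (1.31), and 2 lower, SREBF1 (−1.18) and MVD (−0.95), where 11.4% of all genes were higher and 2.98% lower and 1443 genes had an adjusted p under 0.05 from limma, 0 of them members. The higher members called from either knockdown array thus differed. Leaving out control replicate 1 gave 0 higher and 1 lower, TM7SF2 (−1.19), against 4.67% of all genes lower, and leaving out control replicate 2 gave 0 higher and SREBF1 lower, against 1.73% lower.

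**Figure D4:**
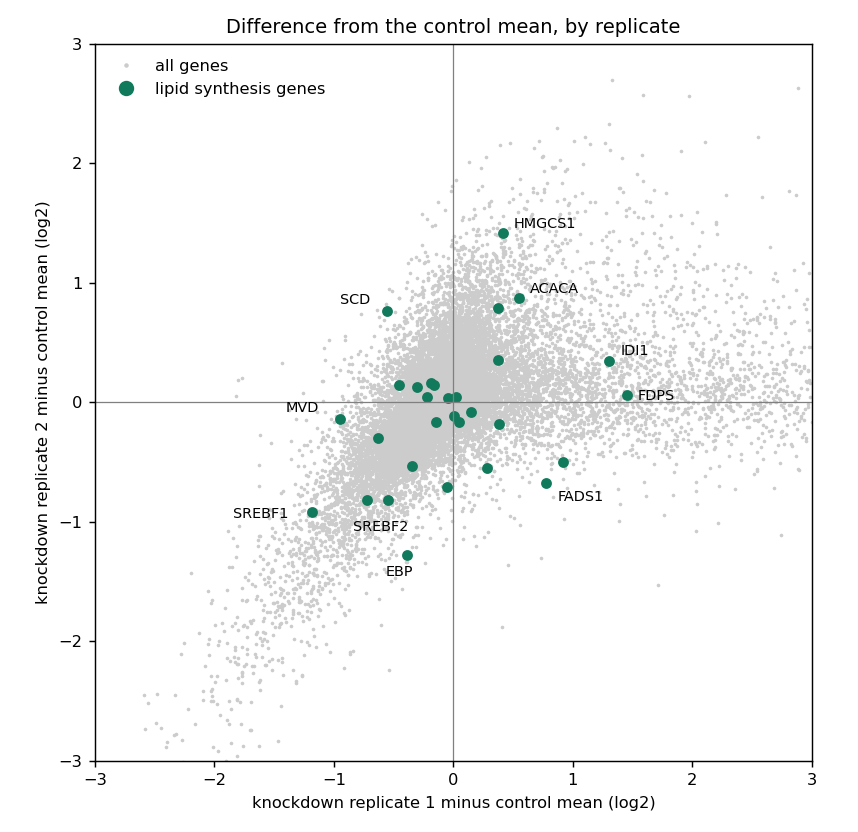
Difference of each knockdown array from the control mean on the brightest probe set, knockdown replicate 1 on the horizontal and replicate 2 on the vertical axis (both log2), for the 30 lipid synthesis genes in green and all genes in grey. HMGCS1 lies high for replicate 2 and FDPS and IDI1 far right for replicate 1, SREBF1 lies low in both, and 545 of the 19774 genes, none of them members, lie beyond the plotted range of 3.

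Other genes of lipid metabolism were taken from a list of 60 that holds fatty acid activation and elongation, triglyceride and isoprenoid synthesis, SREBP processing and sterol transport, of which 55 were measured. Past the fold bound 2 were higher (3.64%, against 1.57% of all genes) and 1 was lower (1.82%, against 3.64%), and 0 had an adjusted p under 0.05 from limma (at an unadjusted p under 0.05, 2 higher and 1 lower). LIPA, the lysosomal lipase that frees cholesterol from its esters, read 1.41 and 1.40 under shGFP and 2.24 and 2.01 under shDCUN1D1, a log2 fold change of 0.72 (SE 0.18), below the 20-base background control in all 4 arrays. RNF139, a ubiquitin ligase of the endoplasmic reticulum, read 2.74 and 2.51 under shGFP and 4.44 and 3.36 under shDCUN1D1, a log2 fold change of 1.27 (SE 0.49), and 0.73 without knockdown replicate 1. AGPAT2, an acyltransferase of phospholipid and triglyceride synthesis, read 3.75 and 4.01 under shGFP and 2.96 and 2.68 under shDCUN1D1, a log2 fold change of −1.06 (SE 0.37), or −0.73 as the mean over its probe sets. The nonspecific controls of similar brightness, of 21 and 22 G or C bases, had −0.65 and −0.68. Their part in the AGPAT2 value was not tested. In 13 of the 55 genes (23.6%, against 8.17% of all genes) knockdown replicate 1 lay over 1 log2 unit above the other arrays. The count past the bound in either direction was 16 without knockdown replicate 2, where 11.4% of all genes were higher and 2.98% lower, and 1 without any other single array.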

How the data were processed

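The authors deposited log2 signal values of 4 single-channel Affymetrix arrays, 1 value per probe set and array. Affymetrix Expression Console is named, without a version, in the submitters' processing notes, and dChip with a smoothing spline in the paper's methods. Which of them made the values is not known. Log2 was taken as the scale because values up to 13.0 would exceed a scanner's range on other logarithms. No detection calls were used. No further scaling was applied.

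Groups came from the sample titles. Members and gene lists were chosen with earlier results of these data known. Gene names came from the platform's annotation, and only probe sets that name exactly 1 gene were kept. limma 3.58.1 (R 4.3.3, variance trend) was fitted on all 19774 genes and on all 40914 probe sets, and the lower 90% bound used limma's standard error and degrees of freedom, not dChip's. The fits were tested on simulated data. Array values were given by rule for the 5 regulators, members with a probe set past the bound and the 8 members with the highest mean. Values of other members, such as HMGCS1, ACACA, FDPS and IDI1, were chosen after they were seen. The alternatives tried were median centring, quantile normalization, a filter on dim genes, the mean of probe sets, other variance models, thresholds and standard errors, a replicate block and leaving out each array. A filter on the nonspecific controls was added after seeing the data.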

Additional observations from a re-analysis of the deposited data

How the results depend on the processing

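The count of members with an adjusted p under 0.05 was 0 under every alternative run for it. The count higher past the fold bound, 0, became 1 without the variance trend (1.78% of all genes) and 2 with a bound above 1.0 (5.59%). The count lower, 1, became 2 without the variance trend (4.61% of all genes) and with a bound above 1.0 (11.1%). It was also 2 with the unmoderated standard error (3.40%). It became 0 with the mean of probe sets (2.08%) and with a bound above 1.5 (1.29%). A filter added after seeing the data kept genes above the 20-base background control in both arrays of either group. It removed SREBF1 before the fit, so its count of 0 lower says nothing on SREBF1. Both counts also moved with some arrays left out. The median log2 fold change of members was −0.19 under quantile normalization, against −0.04 over all genes. Leaving out 1 array gave 2 to 14 member probe sets and 1 to 16 other lipid genes past the bound, and the mean of probe sets gave 1 other lipid gene. Signs reversed with the mean of probe sets for INSIG1 (0.24), SQLE (0.083) and EBP (0.31), and under quantile normalization for CYP51A1 (−0.33), SCD (−0.69) and FADS1 (−0.28). When 1 array was left out the log2 fold change ranged from −0.62 to 0.44 for SCAP, −0.18 to 0.068 for INSIG1, −0.15 to 0.041 for INSIG2, −0.45 to 0.14 for MVK, −0.55 to 0.76 for SCD and −0.67 to 0.78 for FADS1. The cause of these shifts was not tested. With 1 array left out, the lone array of its group is assumed to vary like the other group. The share of all probe sets past the bound was not counted in those fits. The share of all genes past it also fell without control replicate 2 and rose without knockdown replicate 2. The range of member probe sets is therefore not read as particular to lipid synthesis. Replicate numbers were not taken as pairs (correlation of the replicate differences over genes −0.04), and a fit with the replicate block gave 0 higher and 1 lower member, SREBF1, with a bound of 1.27, and 0 by adjusted p. Arrays have no depth, and signal near background limits what can be read for 22 of the 30 members, those not above the nonspecific control in all 4 arrays.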
